A study of Mus musculus with 40 samples.

Results

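H3K27ac, a histone acetylation mark of active promoters and enhancers, was followed at 8 genes that set or oppose the brown fat fate: Prdm16, Ebf1, Ebf2, Ebf3, Zfp516, Ehmt1, Tle3 and Irf4. They were chosen by name from 21884 protein-coding genes. The window of a gene was its annotated span with 5 kb upstream, and the measure was the length of that window lying under peaks (kb under peaks). The cells were cultured preadipocytes isolated from the inguinal white adipose tissue of 8- to 12-week-old C57BL/6 mice, either wild type (WT) or doubly deficient in HMGN1 and HMGN2, a pair of proteins that bind nucleosomes (Hmgn1-/- Hmgn2-/-, DKO). Libraries were made from preadipocytes (day 0) and after 3, 6 and 9 days on the way to brown-like adipocytes. The induction medium held insulin, dexamethasone, IBMX, T3 and rosiglitazone and was followed by a maintenance medium with insulin and T3, for WT and DKO cells alike. Each of the 8 groups had 3 libraries. The labels do not tie a library to a mouse, so p-values measure the spread between libraries, which may be technical.

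PRDM16 is a zinc finger coregulator that switches progenitors towards the brown fat program and sustains thermogenic genes in beige cells. EBF2 marks committed brown and beige precursors and opens brown fat enhancers. EBF1 and EBF3 are its paralogs and share its DNA-binding motif, and EBF1 is also a general adipogenic factor. EHMT1 is a histone methyltransferase that works with PRDM16. ZFP516 and IRF4 are transcription factors induced by cold or cyclic AMP that act on Ucp1 and other thermogenic genes, and TLE3 is a Groucho corepressor that favours the white program and opposes PRDM16.

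The members lie on 8 chromosomes of build mm10 (GENCODE annotation). Prdm16 spans chromosome 4, 154316125 to 154636873, on the minus strand. Ebf1 spans chromosome 11, 44617317 to 45008091, on the plus strand. Ebf2 spans chromosome 14, 67233292 to 67430918, on the plus strand, and Ebf3 chromosome 7, 137193673 to 137314445, on the minus strand. These are long genes, with windows of 325.7, 395.8, 202.6 and 125.8 kb. Ehmt1 (chromosome 2, 24789928 to 24919614, minus strand) has a window of 134.7 kb. Tle3 (chromosome 9, 61372366 to 61418497, plus strand) and Irf4 (chromosome 13, 30749226 to 30766976, plus strand) are the shortest, with windows of 51.1 and 22.8 kb. Several antisense and other transcripts overlap these windows, and the protein-coding gene B230104I21Rik lies within the Prdm16 window, so a peak in a window is placed by position and not by the gene it serves.

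A few stretches of reference sequence (mm10, GRCm38.p6) carry the regional findings below, each 300 bases centred on the summit of the strongest peak of a region. They are the Prdm16 gene start, called in 11 of the 12 libraries of days 6 and 9, then for 5 genes the region of highest −log10 q among those called in 3 of 3 libraries of a genotype and 0 of 3 of the other at some day, and the only member region whose summit window held the EBF motif. All are intronic. Capitals mark a match, on either strand, to the EBF motif (TCCC and GGGA with any 2 bases between) or the C/EBP motif TTGCNNAA, and sequences without capitals held neither of these nor the AP-1 motif (TGACTCA or TGAGTCA).
Prdm16 gene start, chr4:154635785-154636084, plus strand: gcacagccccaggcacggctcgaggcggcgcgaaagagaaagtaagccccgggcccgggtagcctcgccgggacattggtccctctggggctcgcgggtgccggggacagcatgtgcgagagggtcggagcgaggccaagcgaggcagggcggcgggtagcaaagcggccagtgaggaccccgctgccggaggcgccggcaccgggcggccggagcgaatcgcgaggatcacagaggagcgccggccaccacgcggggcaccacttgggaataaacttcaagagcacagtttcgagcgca
Prdm16 intron, 106.2 kb, chr4:154530486-154530785, plus strand: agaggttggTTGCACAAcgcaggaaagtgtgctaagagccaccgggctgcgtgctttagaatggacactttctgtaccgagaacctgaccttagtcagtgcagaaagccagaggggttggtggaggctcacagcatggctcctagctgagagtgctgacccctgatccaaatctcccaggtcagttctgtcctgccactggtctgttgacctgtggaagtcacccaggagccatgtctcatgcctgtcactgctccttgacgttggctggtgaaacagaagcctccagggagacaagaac
Ebf1 intron, 85.6 kb, chr11:44702777-44703076, plus strand: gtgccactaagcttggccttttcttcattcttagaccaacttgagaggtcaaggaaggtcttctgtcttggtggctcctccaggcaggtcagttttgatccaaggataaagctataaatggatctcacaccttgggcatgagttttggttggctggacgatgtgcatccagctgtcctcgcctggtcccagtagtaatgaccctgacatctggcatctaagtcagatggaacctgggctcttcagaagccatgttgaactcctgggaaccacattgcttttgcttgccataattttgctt
Ebf1 intron, 160.4 kb, chr11:44777526-44777825, plus strand: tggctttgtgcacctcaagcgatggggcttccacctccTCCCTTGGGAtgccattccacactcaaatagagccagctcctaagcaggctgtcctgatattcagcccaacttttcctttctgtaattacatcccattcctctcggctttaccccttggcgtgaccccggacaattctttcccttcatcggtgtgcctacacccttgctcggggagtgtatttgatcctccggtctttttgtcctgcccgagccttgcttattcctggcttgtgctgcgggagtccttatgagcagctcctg
Ebf2 intron, 182.1 kb, chr14:67415217-67415516, plus strand: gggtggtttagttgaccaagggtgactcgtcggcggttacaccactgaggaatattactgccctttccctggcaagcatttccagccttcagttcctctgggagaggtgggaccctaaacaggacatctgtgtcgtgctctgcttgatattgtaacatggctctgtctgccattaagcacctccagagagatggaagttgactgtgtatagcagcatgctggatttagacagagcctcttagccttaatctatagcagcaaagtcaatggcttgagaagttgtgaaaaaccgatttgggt
Ebf3 intron, 16.3 kb, chr7:137297960-137298259, plus strand: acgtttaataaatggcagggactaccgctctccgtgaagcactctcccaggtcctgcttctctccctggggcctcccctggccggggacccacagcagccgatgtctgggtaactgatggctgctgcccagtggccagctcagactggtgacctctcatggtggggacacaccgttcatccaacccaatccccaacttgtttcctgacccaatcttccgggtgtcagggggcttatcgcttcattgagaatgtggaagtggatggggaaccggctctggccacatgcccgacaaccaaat
Ehmt1 intron, 30.7 kb, chr2:24888768-24889067, plus strand: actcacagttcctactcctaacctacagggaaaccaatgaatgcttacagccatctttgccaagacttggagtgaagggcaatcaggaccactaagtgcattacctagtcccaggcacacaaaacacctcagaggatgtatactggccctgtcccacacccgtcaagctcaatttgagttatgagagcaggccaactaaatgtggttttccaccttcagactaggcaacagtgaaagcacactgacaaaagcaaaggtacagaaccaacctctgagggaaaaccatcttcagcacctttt

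The lists and labels were checked first. The 24 lists held 47448 to 115923 peaks over 20.7 to 96.4 Mb. Their recovered depth was 4.5 background reads per kb for the shallowest list, WT day 3 replicate 3, against 8.61 to 12.8 for the other 23. DKO day 0 replicate 2 had unusually wide peaks (median 1076 bp, against 313 to 376 bp in the others) and the largest covered length, and DKO day 6 replicate 3 had the fewest peaks and the smallest covered length. Hmgn2 held 0.781 to 1.80 kb under peaks in the 12 WT libraries and none in the 12 DKO libraries, while Hmgn1 held peaks in all 24. The whole genome moved with the groups at day 6, where peaks covered 55.5 to 60.4 Mb in WT and 20.7 to 36.3 Mb in DKO libraries, and this difference is set beside each result. Of 6 adipocyte markers, Adipoq and Cidec had a peak within 1 kb of the gene start in 0 of 12 libraries at days 0 and 3 and in 12 of 12 at days 6 and 9. Plin1 had one in 0 of 6 at day 0, 4 of 6 at day 3 and all 12 later, Fabp4 in all 24, and Lep and Lipe in none. The whole Lipe window did hold peaks, on average 3.08 kb (WT) and 5.44 kb (DKO) at day 0 and 13.3 and 15.4 kb at day 9. Of 6 preadipocyte markers, Pdgfra, Pdgfrb and Ly6a had one in all 24, Cd34 in 12 (0 of 6 at day 0 and 6 of 6 at day 9), Dpp4 in 7 and Dlk1 in none.

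All 8 members passed the filter of a peak in at least 3 libraries, which kept 15162 genes. The windows of Ebf1, Ebf2, Ebf3, Zfp516, Ehmt1 and Tle3 held peaks in all 24 libraries, and that of Prdm16 in 22. Per length of window, the group means ran from 11.8 to 29.9% at Ebf1, from 1.72 to 9.05% at Ehmt1 and from 0.07 to 1.01% at Prdm16. The Irf4 window held a peak in 5 libraries.

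**Figure D1:**
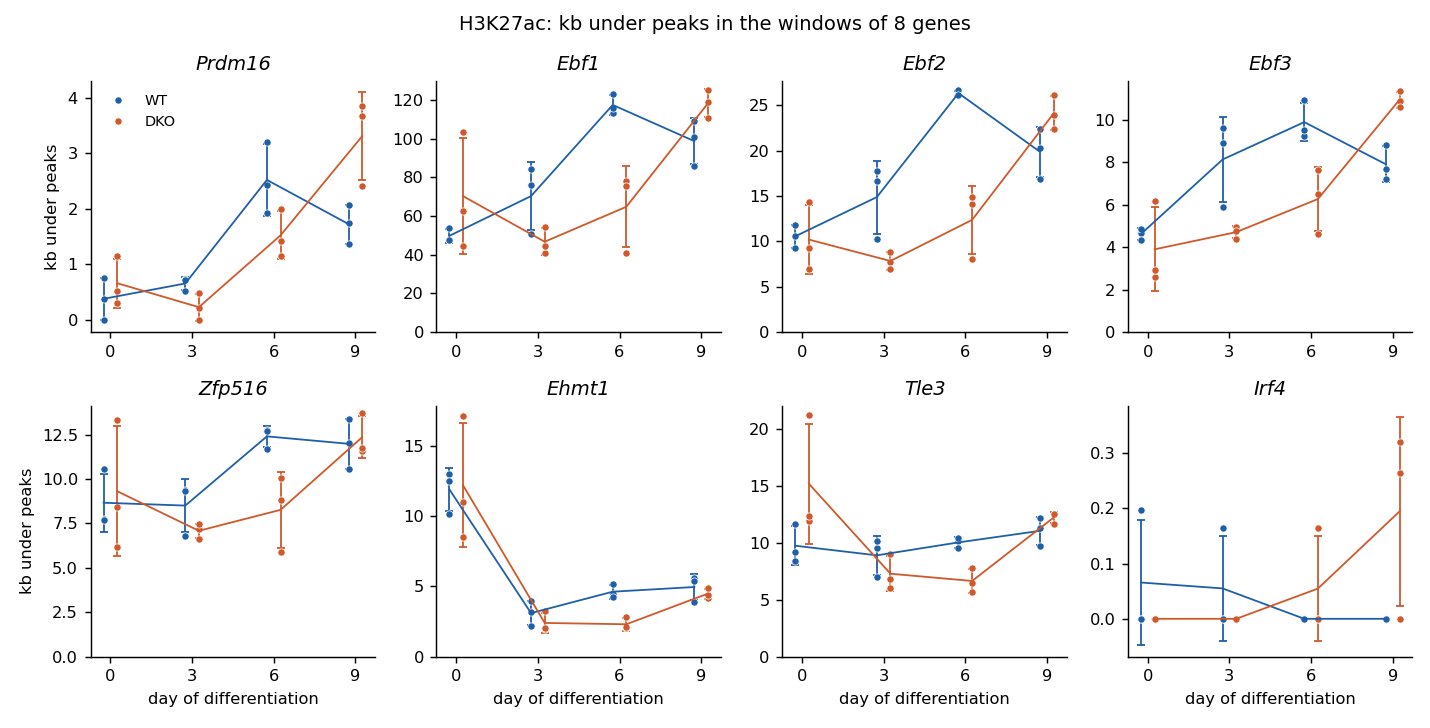
H3K27ac kb under peaks (vertical axis) in the window of each gene against the day of differentiation (horizontal axis) in WT (blue) and DKO (orange) cells. Points are libraries, lines join group means and bars are SD (n = 3). At the 3 EBF genes the WT mean peaked at day 6 and the DKO mean at day 9, but scaled to covered length (not plotted) the DKO mean was also higher at day 6 than at day 9, at 106 against 93 kb (Ebf1), 20.3 against 19 kb (Ebf2) and 10.4 against 8.6 kb (Ebf3).

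The first question was whether the mark at these genes changed as preadipocytes became brown-like adipocytes. Prdm16 and the 3 EBF genes gained H3K27ac between day 0 and day 9, and Ehmt1 lost it. Averaged over the genotypes, the gain was 1.99 kb at Prdm16, 48.5 kb at Ebf1, 11.6 kb at Ebf2 and 5.16 kb at Ebf3, and Ehmt1 fell by 7.32 kb. Each of these 5 had p 0.005, the smallest that the 400 relabellings of day within genotype allow, and an adjusted p of 0.0203 (exact permutation test, two-sided, Benjamini-Hochberg over all genes tested). Of all genes tested, 16.3% were higher and 14.9% lower at day 9 by the same rule. With the 20000 strongest peaks of each list, 1 member passed this test, Ebf3 (3.53 kb, adjusted p 0.0467), and the values were 21.3 kb at Ebf1, 4.36 kb at Ebf2 and -2.79 kb at Ehmt1 (adjusted p 0.0987, 0.0764 and 0.355, exact test), with too few peaks left to test Prdm16. Zfp516 (3.18 kb, exact p 0.035, adjusted 0.0919), Tle3 (-0.831 kb, exact p 0.865) and Irf4 (0.0643 kb, exact p 0.4) did not pass. With limma on log2(kb + 0.5), the same 5 genes passed within WT and within DKO cells taken separately, and Prdm16 and Ehmt1 alone did so without replicate 1 or without replicate 3. For example, Prdm16 changed by 1.42 ± 0.30 (log2, SE) in WT and 1.76 ± 0.30 in DKO cells (adjusted p 0.0013 and 0.000104), and Ehmt1 by -1.19 ± 0.22 and -1.29 ± 0.22 (adjusted p 0.000365 and 0.000103). In that fit 13.7% of all genes rose and 8.84% fell in WT, and 15.5% rose and 14.1% fell in DKO cells. Immune markers also moved with the day. Summed over the starts of 4 immune genes, peaks covered 3.29 to 4.31 kb (WT) and 4.37 to 5.88 kb (DKO) at day 0, and 1.1 to 1.57 kb (WT) and 1.51 to 1.83 kb (DKO) at day 9. Csf1r had a start peak in 6 of 6 libraries at day 0 and in 0 of 18 later, and Ptprc in 6 of 6 at day 0 but 1 of 6 at day 9, while Cd68 had one in all 24 and Adgre1 in 20. Of 3 endothelial markers, Pecam1 had a start peak in all 12 libraries of days 0 and 3 and in 1 of 12 later, and Kdr in 5 of 6 at day 0, 0 of 12 at days 3 and 6 and 4 of 6 at day 9. Cdh5 had none, but its window held 0.798 to 2.02 kb at day 0 and 0 kb at days 6 and 9. The 5 muscle and epithelial markers (Myod1, Myf5, Myog, Epcam and Cdh1) had no peak within 1 kb of their starts in any library, although the Cdh1 window held 0.515 to 1.42 kb at day 9. The part of these cells in the day differences was not tested, and in bulk chromatin fewer cells of a type and less mark per cell cannot be told apart.

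Prdm16 had almost no mark in preadipocytes. In WT cells its kb under peaks were 0.385, 0 and 0.76 at day 0, 0.518, 0.739 and 0.716 at day 3, 3.21, 1.93 and 2.42 at day 6, then 1.37, 2.07 and 1.74 at day 9. In DKO cells they were 0.305, 1.16 and 0.524 at day 0, 0, 0.487 and 0.208 at day 3, 1.42, 2 and 1.15 at day 6, then 3.66, 3.85 and 2.41 at day 9. The low values were those of days 0 and 3. In WT cells all 6 later libraries lay above all 6 earlier ones, and in DKO cells 1 day 6 library (1.15 kb) lay just below the highest day 0 library. At day 9 the lowest DKO library lay above the highest WT library, as in 29.3% of all genes. The rise between days 3 and 6 was 1.37 ± 0.30 (log2, SE) in WT and 1.5 ± 0.30 in DKO cells (limma adjusted p 0.00429 and 0.00155), steps at which 10.6% and 5.47% of all genes rose. From day 6 to day 9 Prdm16 rose by a further 0.91 ± 0.30 in DKO cells (adjusted p 0.015), where 61.6% of all genes rose, and the WT value was -0.43 ± 0.30 (adjusted p 0.766). With kb scaled to each library's covered length, that DKO step was 0.01 (adjusted p 1) and the day 3 to 6 steps stayed past the threshold, at 1.08 in WT and 1.99 in DKO cells, where 9.04% and 18.2% of all genes rose.

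The Prdm16 gain came from a few weak intronic regions rather than from a broad domain. Of its 13 merged regions (peaks of any library joined where they overlap), none was called in all 24 libraries and the longest was 2038 bp. A region at the gene start (chromosome 4, 154635128 to 154636369, summit 0.94 kb into the gene) was called in 0 of 6 libraries at day 0, 2 of 6 at day 3, 6 of 6 at day 6 and 5 of 6 at day 9. Its strongest peak, in DKO day 9 replicate 1, had 29 reads at the summit, a fold enrichment of 9.603 over local background and a rank of 22.8% in its list, where 0% is the strongest peak. A region 54.89 kb into the gene (154580687 to 154582724) appeared in 2 of 12 libraries before day 6 and 12 of 12 from day 6 on, and a region at 109 kb (154527763 to 154528182) in 3 of 3 WT libraries at days 6 and 9 but in 1 of 3 DKO libraries at day 6 and 3 of 3 at day 9. A region at 106.2 kb (154530515 to 154530746) was called in 3 DKO libraries at day 9 and in no other library (exact conditional test over days, p 0.1). It had 23, 16 and 15 reads at its summits. The sequence shown above reaches beyond this region, and its C/EBP match lies outside the called bases. The one Prdm16 region common at day 0, at 302.2 kb (154334223 to 154335380), covers an annotated transcript start in the last part of the gene and was called in 5 of 6 libraries at days 0 and 9. It also lies just upstream of the start of B230104I21Rik (154336127, plus strand), and which gene it serves was not tested. At days 6 and 9 the mark at Prdm16 was thus read at the gene start and at 2 intronic places in most libraries of both genotypes.

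**Figure D2:**
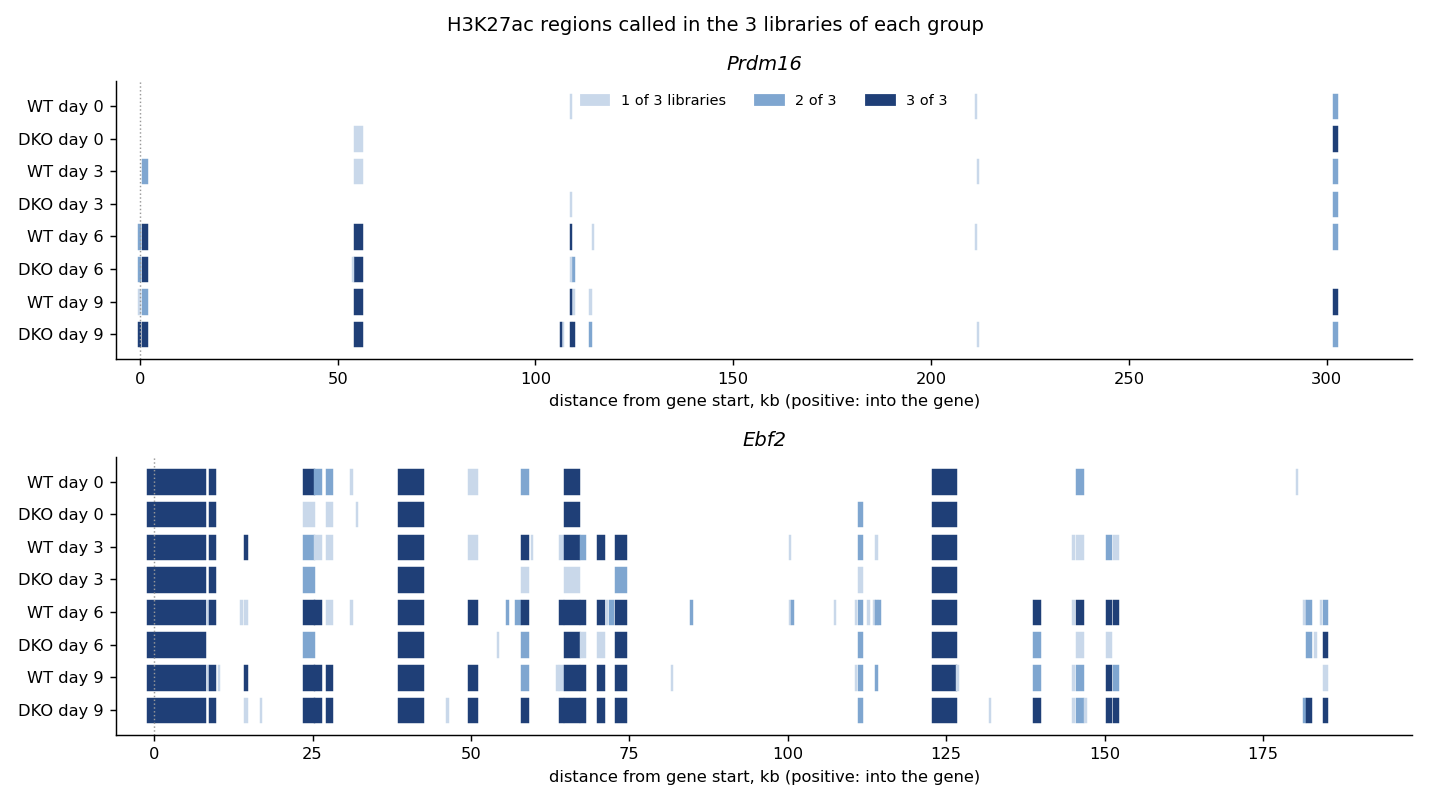
Merged H3K27ac regions at Prdm16 and Ebf2 by distance from the gene start in kb (horizontal axis), with 1 row for each group of 3 libraries. Shade gives the number of the 3 libraries that called the region. At Prdm16 the rows of days 0 and 3 hold no region called by all 3 libraries up to 300 kb, and at Ebf2 the row of DKO day 6 lacks regions that WT day 6 and DKO day 9 hold.

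Ebf2, the precursor factor, was lower in DKO cells at day 6 as called, and at days 0, 3 and 6 relative to covered length. Its kb under peaks in WT cells were 9.3, 11.8 and 10.6 at day 0, 16.7, 17.7 and 10.3 at day 3, 26.2, 26.7 and 26.2 at day 6, then 16.9, 22.4 and 20.3 at day 9. In DKO cells they were 6.96, 14.3 and 9.32 at day 0, 7.76, 8.83 and 6.94 at day 3, 14.1, 14.9 and 8.09 at day 6, then 26.1, 22.3 and 23.9 at day 9. Every DKO library lay below every WT library at days 3 and 6 (as in 10.8% and 59.6% of all genes), and the groups overlapped at days 0 and 9. At day 6 the difference was -14 kb, or -1.11 ± 0.24 on the log2 scale (limma adjusted p 0.0018), and at day 3 it was -7.04 kb (-0.85 ± 0.24, adjusted p 0.142). Averaged over the 4 days it was -4.28 kb (p 0.0352, adjusted 0.455, two-sided exact test permuting genotype within each day). Relative to covered length Ebf2 was lower in DKO cells at days 0, 3 and 6 (-0.43 ± 0.08, -0.54 ± 0.08 and -0.19 ± 0.08 on the log2 scale, limma adjusted p 0.00133, 0.00023 and 0.0428, where 1.77, 3.18 and 14.6% of all genes were lower) and not separable at day 9 (0.06 ± 0.08, adjusted p 0.823). On that scale the mean over days was -2.61 kb, past the threshold (exact p 0.000812, adjusted 0.013), as were 5.71% of all genes in that direction and 9.19% in the other.

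Ebf2 carried a broad domain over its start (chromosome 14, 67232166 to 67241273, 9108 bp) that all 24 libraries called, reaching a fold of 28.02 and a rank of 0.828% in WT day 9 replicate 3. The domain at 40.21 kb and that at 124.8 kb were also called in all 24. At day 6 peaks covered 1.61 to 1.72 kb within 1 kb of the gene start in WT libraries and 0.515 to 1.23 kb in DKO libraries. Weaker intronic regions also differed at day 6, and 5 were called by all 3 WT libraries and no DKO library, as were 8.82% of all regions called at that day. All 5 were called in 3 of 3 DKO libraries at day 9, but they were picked for having no DKO call at day 6. One of them, 8.78 kb into the gene (67241928 to 67242969), was called in every library except those of DKO day 6. Regions at 67.77, 70.45, 73.76 and 150.8 kb were in 0 of 6 libraries at day 0 and 6 of 6 at day 9. A region at 182.1 kb (67415073 to 67415943) was called in 3 DKO and 0 WT libraries at day 9 but in 2 of 3 of each genotype at day 6, and its WT day 6 peaks had folds of up to 9.16 with 27 reads at the summit.

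Ebf1 had the most kb under peaks of the members. Per length of window Tle3 held more at day 0 (19.1 against 12.6% in WT and 29.8 against 17.8% in DKO cells) and in DKO cells at day 3 (14.3 against 11.8%). The Ebf1 kb under peaks in WT cells were 47.8, 54.1 and 47.5 at day 0, 76, 84.4 and 50.8 at day 3, 113, 116 and 123 at day 6, then 85.9, 109 and 101 at day 9. In DKO cells they were 44.7, 104 and 62.8 at day 0, 41.1, 54.6 and 44.6 at day 3, 78.2, 75.5 and 40.8 at day 6, then 125, 119 and 111 at day 9. At day 0 the high DKO value is the library with wide peaks. All DKO libraries lay below WT at day 6 and above it at day 9, as in 59.6% and 29.3% of all genes. The day 6 difference was -52.7 kb (-0.91 ± 0.30 on the log2 scale, limma adjusted p 0.0216). It was 0.03 ± 0.06 with scaling to covered length (adjusted p 0.747) and -0.61 when DKO day 6 replicate 3 was left out (adjusted p 0.138). The day 9 difference was 0.26 ± 0.30 (adjusted p 0.787).

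The Ebf1 window held 248 regions, 14 of them in all 24 libraries and 120 in only 1 or 2. The domain over its start (chromosome 11, 44615800 to 44629785) was 13986 bp long and held the strongest peak of any member, with a fold of 42.8 and a rank of 0.0205% in WT day 6 replicate 1. A domain near the end of the gene (44998965 to 45006345, 386.3 kb into it) reached a rank of 0.486%. An intronic region at 217.3 kb (44834230 to 44835009) had a peak in 10 of 12 libraries from WT and in 2 of 12 from DKO cells, both at day 0 (exact conditional test within days, p 0.00125), and a region at 304.4 kb (44921653 to 44922403) in 9 WT and 1 DKO library (p 0.002). After adjustment over the 71228 regions tested no region passed (0%), and at an unadjusted p below the threshold 4.82% of all regions were called more often in WT and 0.456% in DKO, against 11 and 0 of 175 member regions tested. The region at 160.4 kb (44777096 to 44777916), shown above with its EBF match, was called in 8 WT and 5 DKO libraries (p 0.35). It was weak, with 11 to 24 reads at the summit.

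Ebf3 had its highest WT and DKO means at different days as called. Its kb under peaks were 4.65, 4.86 and 4.33 kb at day 0, 8.9, 9.6 and 5.87 at day 3, 9.22, 9.52 and 10.9 at day 6, then 7.68, 8.83 and 7.18 at day 9 in WT cells. In DKO cells they were 2.6, 6.17 and 2.92 at day 0, 4.38, 4.97 and 4.77 at day 3, 6.52, 7.64 and 4.62 at day 6, then 11.3, 10.9 and 10.6 at day 9. The DKO libraries lay below WT at days 3 and 6 and above WT at day 9, without overlap, as in 10.8, 59.6 and 29.3% of all genes. At day 6 the difference was -0.64 ± 0.22 (log2, SE, limma adjusted p 0.0293), but 0.25 ± 0.10 with kb scaled to covered length (adjusted p 0.0545), and -0.45 without DKO day 6 replicate 3 (adjusted p 0.187). The WT step from day 0 to day 3 was 0.73 ± 0.22 (limma adjusted p 0.0331, as in 3.24% of all genes) and the DKO step 0.33 ± 0.22 (adjusted p 0.214), and the difference between these steps was not tested. Relative to covered length the step was 0.93 in WT and 1.15 in DKO cells (adjusted p 2.3e-07 and 6.41e-09, as in 12.2% and 27.2% of all genes), and both genotypes had their highest mean before day 9. The change from day 0 to day 9 did not differ past the threshold between genotypes (0.76 ± 0.32, adjusted p 0.561), except relative to covered length, where Ebf3 (0.86, adjusted p 0.00578) and Ebf2 (0.50, adjusted p 0.0219) gained more in DKO cells. On that scale 0.706% of all genes gained more and 0.594% less, and as called 0.264% and 0.231%. The region at 16.3 kb (chromosome 7, 137296674 to 137298518, sequence above) had a peak in every WT library but in 6 of 12 from DKO cells, none of which was of day 0 (exact p 0.01). Regions at 91.8 kb (137222241 to 137223294) and 85.4 kb (137228662 to 137229985) were absent from all 6 libraries at day 0 and present in all 12 at days 6 and 9.

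Ehmt1, the methyltransferase partner of PRDM16, went the other way. In WT cells its kb under peaks were 10.2, 13 and 12.5 at day 0, 3.94, 3.17 and 2.21 at day 3, 5.19, 4.43 and 4.26 at day 6, then 3.88, 5.62 and 5.37 at day 9. In DKO cells they were 8.51, 17.1 and 11 at day 0, 1.98, 2.01 and 3.23 at day 3, 2.83, 2.02 and 2.08 at day 6, then 4.17, 4.43 and 4.88 at day 9. The fall came at the first step in both genotypes, by 1.8 ± 0.22 in WT and 2.1 ± 0.22 in DKO cells on the log2 scale (limma adjusted p 9.18e-06 and 4.28e-07), a step at which 10.7% of all genes fell in WT and 50.6% in DKO cells. Relative to covered length it fell by 1.62 and 1.30. The gene start (chromosome 2, 24917568 to 24920422) kept its peak in all 24 libraries, so the loss was intronic. Regions at 30.7 kb (24888355 to 24892314, sequence above) and 19.48 kb (24896680 to 24904186) were called in 6 of 6 libraries at day 0, in 1 of 6 each at day 3, and again in 3 of 3 WT libraries at day 6, where 0 and 1 of the 3 DKO libraries called them. At 30.7 kb the highest summit of a library held 19 to 43 reads at day 0 and 12 to 17 reads at day 9.

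Zfp516 and Tle3 did not pass between day 0 and day 9. Zfp516 (chromosome 18, 82910663 to 83005314, plus strand, window of 99.7 kb) ranged from 6.78 to 13.4 kb over the 12 WT libraries and from 5.91 to 13.7 kb over the 12 DKO libraries. Tle3 ranged from 6.99 to 12.2 kb (WT) and from 5.7 to 21.3 kb (DKO), the highest being the library with wide peaks. At day 6 both were lower in DKO cells without overlap, as were 59.6% of all genes. By limma the difference was -0.59 ± 0.22 at Zfp516 (adjusted p 0.0386) and -0.57 ± 0.20 at Tle3 (adjusted p 0.0319, log2), where 39.9% of all genes were lower. Scaled to covered length both turned higher in DKO cells (0.31 ± 0.10, adjusted p 0.0163, and 0.32 ± 0.12, adjusted p 0.0252), and without DKO day 6 replicate 3 neither passed (-0.38 and -0.47, adjusted p 0.246 and 0.145). The Tle3 start carried a 7478 bp domain (chromosome 9, 61370621 to 61378098) in all 24 libraries, with a best rank of 0.428%. In DKO cells Tle3 fell between days 0 and 3 (-0.98, adjusted p 0.000584) and rose between days 6 and 9 (0.84, adjusted p 0.00185), steps at which 50.6% of all genes fell and 61.6% rose. Irf4 held no more than 0.32 kb in any library. A region over its first exon (chromosome 13, 30749229 to 30749636) was called in WT day 3 replicate 2, DKO day 6 replicate 1 and DKO day 9 replicates 1 and 2, with 11 to 18 reads at the summit, and 1 further peak stood at the end of the gene, so H3K27ac at Irf4 was at the limit of what these lists detect.

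The second question was whether loss of HMGN changed the mark at each day. Over the 4 days together, 0 of the 8 members passed the exact test within days, against 0.0264% of all genes higher and 0.125% lower in DKO cells. At an unadjusted p below the threshold 1 member, Ebf2, was lower, as were 5.92% of all genes. At day 6, 6 of 8 members (Ebf1, Ebf2, Ebf3, Zfp516, Ehmt1 and Tle3) were lower in DKO cells past the threshold by limma, and the remaining values were -0.58 ± 0.30 at Prdm16 (adjusted p 0.127) and 0.14 ± 0.17 at Irf4 (adjusted p 0.525). This went with the whole genome: 39.9% of all genes were lower and 0.0923% higher at day 6, 59.6% were lower without overlap, and the median over all genes was -0.42, against -0.61 over the 8 members. Relative to covered length the median of all genes was 0.16, 33.3% were higher and 14.6% lower, and of the members Ebf2 stayed lower past the threshold, Zfp516 and Tle3 were higher, and Ebf1, Ebf3, Ehmt1, Prdm16 and Irf4 did not pass. Without DKO day 6 replicate 3, Ebf2 (-0.84, adjusted p 0.0196) and Ehmt1 (-0.82, adjusted p 0.0303) remained past the threshold. At day 3, Prdm16, Ebf2 and Ebf3 were lower in DKO cells without overlap, as were 10.8% of all genes, and at day 0 Tle3 was higher, as were 18.4%. At days 0, 3 and 9 no member passed (limma, as called), where 2.62, 0.0132 and 1.7% of all genes were higher and 0.264, 0.29 and 0.158% lower. Relative to covered length, Ebf2 and Ebf3 were lower in DKO cells at day 0, and Ebf1, Ebf2 and Ebf3 at day 3, where 1.77 and 3.18% of all genes were lower. On that scale Ebf3 differed by -0.62 at day 0 and -0.40 at day 3 (adjusted p 0.000803 and 0.0222) and Ebf1 by -0.24 at day 3 (adjusted p 0.022).

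**Figure D3:**
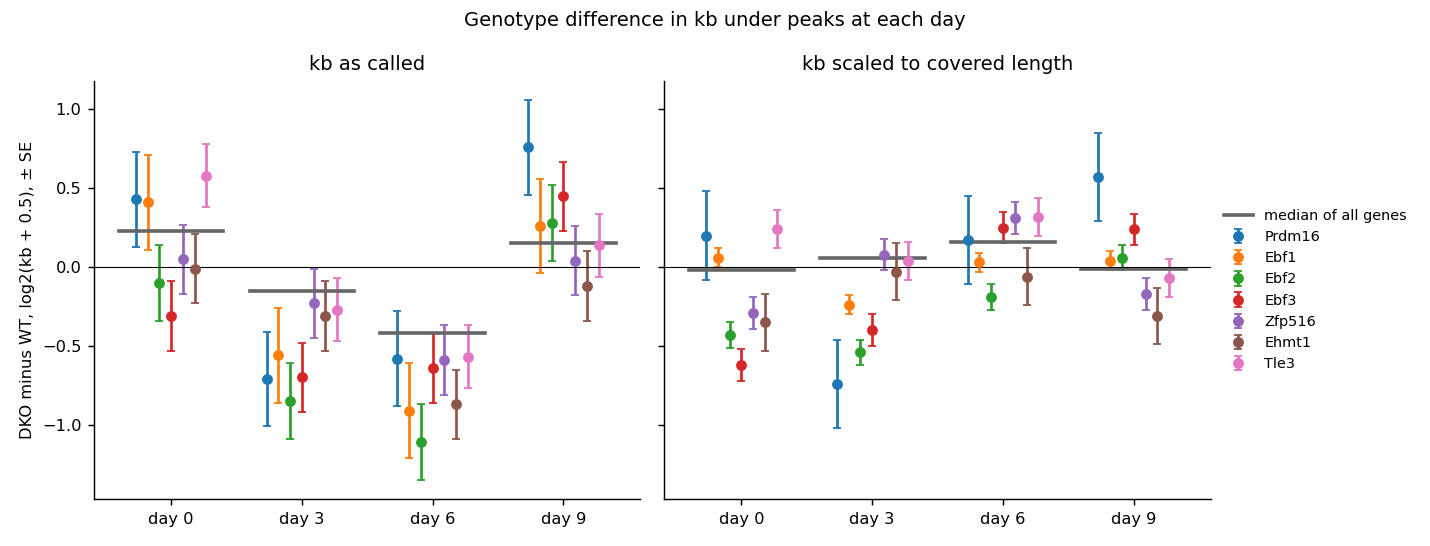
DKO minus WT difference in log2(kb + 0.5) at each day (points, bars are SE of the limma fit) for 7 members, with kb as called (left) and scaled to the covered length of each library (right). Grey bars are the median of all 15162 genes, which lies at -0.42 at day 6 on the left and at 0.16 on the right. Ebf2 and Ehmt1 lie below the grey bar at days 0, 3 and 6 in both panels.

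Between days 6 and 9 the sign of the genotype difference turned. The difference at day 9 minus that at day 6 was 1.34 ± 0.43 at Prdm16, 1.17 ± 0.42 at Ebf1, 1.39 ± 0.34 at Ebf2 and 1.09 ± 0.32 at Ebf3 (log2, SE, limma adjusted p 0.0227, 0.0358, 0.00763 and 0.0153), and 38.5% of all genes passed in that direction against 0.0528% in the other. These contrasts were chosen after the values were seen. Prdm16, Ebf1 and Ebf3 were higher in all 3 DKO than in all 3 WT libraries at day 9, as were 29.3% of all genes. Scaled to covered length, the 4 values were 0.39, 0.01, 0.25 and -0.01, and none passed (adjusted p 0.468, 0.931, 0.0801 and 0.977), while 8.96% of all genes passed upwards and 18.3% downwards. At day 9 on that scale Prdm16 and Ebf3 lay above WT without overlap but did not pass (0.57 and 0.24, limma adjusted p 0.378 and 0.31). Zfp516 and Ehmt1 lay below WT without overlap and did not pass either (-0.17 and -0.31, limma adjusted p 0.521 and 0.474). The share of all genes without overlap was not counted on that scale.

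Single regions were also counted by genotype and day. At day 6, all 3 WT and no DKO library called 16 of the 281 member regions called at that day, and 0 were split in the opposite direction. The counts at day 9 were 1 and 9 of 299. Among all regions called at those days, 8.82% and 0.0756% split this way at day 6 and 0.582% and 2.2% at day 9. Of the 16 regions, 11 were called in all 3 DKO libraries at day 9. The 16 were picked for having no DKO call at day 6, so their DKO calls could not fall. The share of all regions so picked that DKO libraries called at day 9 was not counted, so no turn is read from the 11. At day 3 the counts were 7 and 0 of 157 (2.1% and 0.228% of all regions) and at day 0 they were 1 and 0 of 148 (1.09% and 1.37%). With the 20000 strongest peaks of each list, the 25 WT splits over the 4 days became 2 and the 9 DKO splits 1. With peaks of −log10 q of at least 5 they were 27 and 9. Of these WT splits 22 were at day 6, among 210 member regions, against 6426 among 71431 regions of the whole genome.

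**Figure D4:**
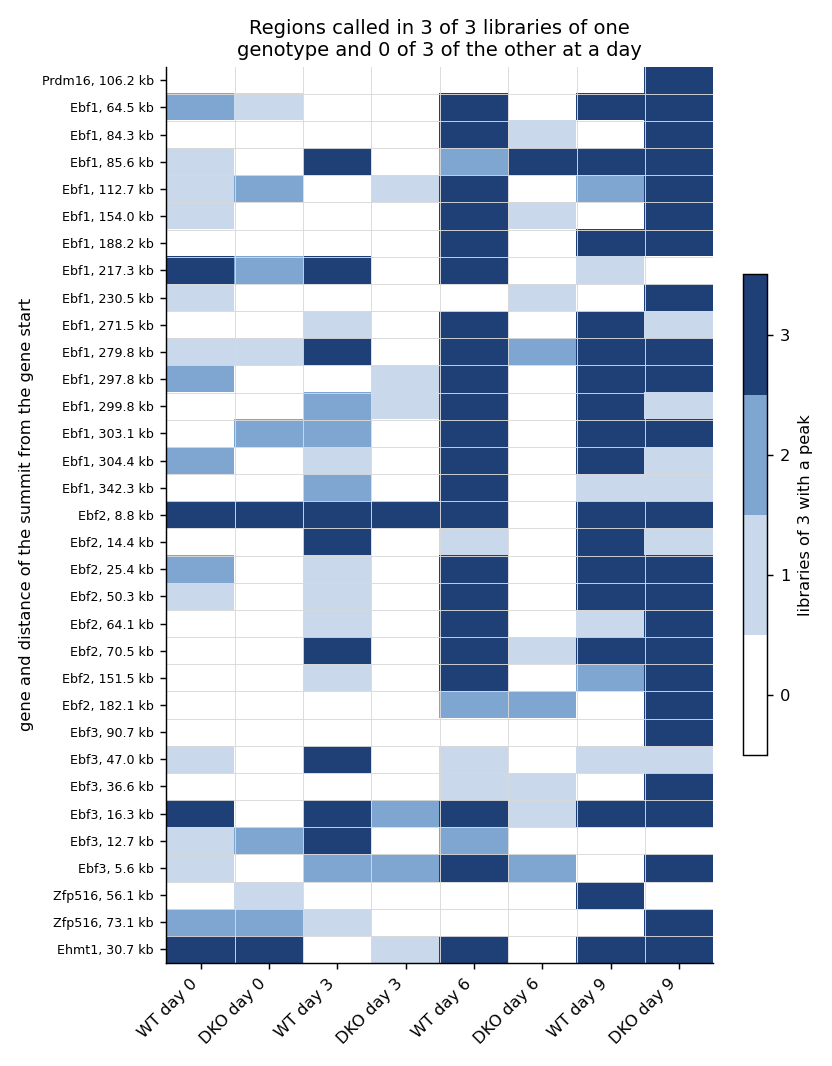
The 33 member regions called in 3 of 3 libraries of a genotype and 0 of 3 of the other at one or more days, named by gene and distance of the summit from the gene start in kb (rows), with shade for the number of the 3 libraries of each group (columns) that called them. Of the 33 rows, 16 are fully dark in WT day 6 and white in DKO day 6, and 11 of these are fully dark in DKO day 9. Rows picked for white in DKO day 6 could not become lighter by DKO day 9.

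The strongest peak of each window was compared by its rank, the percentage of peaks in the same list with a higher −log10 q. The lists differed in length, with 47448 to 74867 peaks in DKO and 98503 to 105511 in WT libraries at day 6, and the same position in a shorter list gives a higher percentage. Ebf2 ranked 9.67, 6.13 and 2.47% in WT and 15.4, 8.87 and 15.3% in DKO cells at day 0, and 1.02, 1.25 and 0.828% against 1.95, 3.94 and 2.47% at day 9. At day 9 the WT percentages were lower without overlap, and the day 0 groups overlapped. The share of all genes without overlap in rank was not counted. DKO lists held 111219 to 115923 peaks and WT lists 91488 to 111761 at day 9, and the part of list length at single days was not tested. Averaged over days the DKO percentage was 2.96 points higher (same exact test, p 0.00429, adjusted 0.0726). That of Zfp516 was 2.69 points higher (exact p 0.00449, adjusted 0.0741), with 2.47, 2.11 and 2.47% in WT against 6.52, 5.25 and 5.99% in DKO cells at day 0. Without WT day 3 replicate 3, the shallow library, Zfp516 was the 1 member past the threshold. That of Ebf3 was 6.05 points higher (exact p 0.041, adjusted 0.211). Within the 20000 strongest peaks of each list, so that all lists had 1 length, the differences were 11.6 points at Ebf2, 4.57 at Zfp516 and 5.09 at Ebf3 (exact p 0.061, 0.0896 and 0.449, adjusted 0.343, 0.404 and 0.758), and no member passed. Of all genes 3.55% passed this test and 21.5% did so before adjustment, against 0 and 3 of the 8 members. Ebf1 (exact p 0.91), Ehmt1 (0.88), Tle3 (0.604), Prdm16 (0.48) and Irf4 (0.275) gave no difference beyond the spread.

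**Figure D5:**
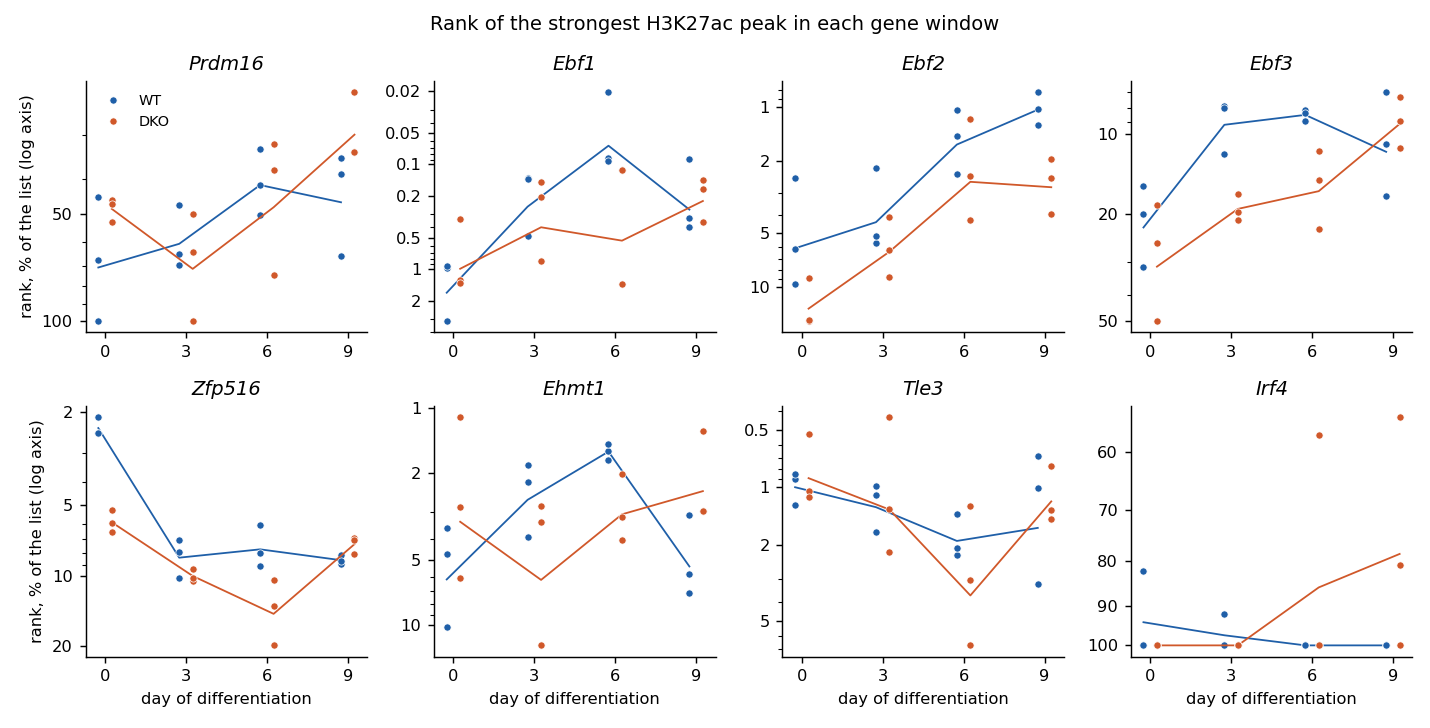
Rank of the strongest H3K27ac peak in each gene window, in percent of the peaks of its list (vertical log axis, strongest at the top; 100 where the window holds no peak), by day (horizontal axis) in WT (blue) and DKO (orange) libraries. Points are libraries and lines join group means. At Ebf2 the DKO mean percentage is the higher one at all 4 days, in lists whose lengths differed.

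The members were also compared with the rest of the brown fate network. The first list held 10 genes coding for partners of PRDM16 or related regulators (Mecom and Zfp423), called partners below. Of these, 4 were higher at day 9 than at day 0 and 0 lower by the exact test. They were the adipogenic factors Pparg and Cebpb, the coactivator Ppargc1a and the white fate regulator Zfp423. By this test, used for each list, 16.3% of all genes were higher and 14.9% lower. The median change was 0.0918 kb over this list, 0.0383 kb over all genes and 2.59 kb over the 8 members. Pparg gained 15.3 kb (exact p 0.005, adjusted 0.0203). Of 9 paralogs of TLE3, the EBFs and IRF4, Tle1 was higher at day 9 (4.89 kb), Tle4 (-1.05 kb) and Ebf4 (-0.452 kb) were lower, each with adjusted p 0.0203. Of 8 brown fat effector genes 7 could be tested, since the Ucp1 window was without a peak in all 24 libraries. Of these, 5 (Dio2, the deiodinase that makes T3, Ppara, Cox7a1, Elovl3 and Ppargc1b) were higher at day 9 and none lower.

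For genotype, 0 of these 26 genes passed the exact test over the 4 days. At day 6, 3 of the 10 partners (Ctbp2, Kdm1a and Mecom), 7 of the 9 paralogs and 2 of the 7 effectors (Cidea and Dio2) were lower in DKO cells by limma, with list medians of -0.29, -0.62 and -0.05 against -0.42 over all genes, of which 39.9% were lower. Scaled to covered length these counts became 1 partner (Mecom, -0.99 ± 0.21, adjusted p 0.000936), 2 paralogs (Tle2 and Tle6) and 1 effector (Cidea, -1.13 ± 0.25, adjusted p 0.00113), where 14.6% of all genes were lower. On that scale 7 partners (Ehmt2, Ctbp1, Med1, Cebpb, Pparg, Ppargc1a and Zfp423), 1 paralog (Tle1) and 4 effectors (Ppara, Cox8b, Elovl3 and Ppargc1b) were higher, as were 33.3% of all genes. At day 9 none of the partners or paralogs passed as called, and with scaling Pparg was higher in DKO cells (0.67 ± 0.12, adjusted p 0.00242). There were 3 effectors higher in DKO cells at day 9: Elovl3, a fatty acid elongase (0.578 kb in WT and 3.58 kb in DKO cells on average, 1.92 ± 0.28 on the log2 scale, limma adjusted p 0.000373), Cox8b, a subunit of cytochrome c oxidase (0.104 and 1.09 kb, 1.43 ± 0.18, adjusted p 0.00012), and the coactivator Ppargc1b (9.28 and 17 kb, 0.83 ± 0.18, adjusted p 0.0153). All 3 also passed relative to covered length, and 1.7% of all genes were higher at day 9 as called and 2.08% when scaled. At day 6 Elovl3 was as called the only gene of these 3 lists higher in DKO cells (1.32 ± 0.28, limma adjusted p 0.0012, groups overlapping).

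Across the 24 libraries the members fell into those that moved together and those that did not. Spearman's rho of kb under peaks, given as a description over libraries that share days and covered length, was 0.934 between Ebf1 and Ebf2, 0.890 between Ebf3 and each of them, and 0.844 between Prdm16 and Ebf1. It was 0.197 between Ebf1 and Ehmt1 and 0.6 between Ebf1 and Tle3. Scaled to covered length these were 0.945 (Ebf1 and Ebf2), 0.835 (Prdm16 and Ebf1), -0.495 (Ebf1 and Ehmt1) and -0.347 (Ebf1 and Tle3). The genes outside a member's window with the most similar course were Arhgap24 and Celf2 for Ebf1 (rho 0.977 each), Nid1 for Ebf2 (0.975), Bmper and Hspa12a for Ebf3 (0.943), and Ybx3, Fgfrl1 and Apex2 for Prdm16 (0.957, 0.953 and 0.951). They were Gsn for Zfp516 (0.956), Angpt4 for Ehmt1 (0.943) and Arap2 for Tle3 (0.958).

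Sequence motifs were counted within 150 bp of region summits, on both strands. The EBF motif stood in 1 of 409 member regions (0.244%) and in 0.878% of all 169358 regions. The C/EBP motif TTGCNNAA stood in 45 member regions (11%) and 11.7% of all, and the AP-1 motif in 15 (3.67%) and 5.92%. At Prdm16 the C/EBP motif stood within 150 bp of the summit in 2 of 13 regions. In 1 of them, the region called in DKO cells at day 9 only, the match lay outside the called bases. In 300 bp promoters, taken from RefSeq for 6 of the 8 members, none of the 3 motifs was found, while 0.904% (EBF), 10.8% (C/EBP) and 5.2% (AP-1) of all promoters held one. These are matches of letters and not sites of binding.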

How the data were processed

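H3K27ac ChIP-seq was analysed in 24 libraries, 3 for each genotype and day, with groups and replicate numbers from GEO's labels. The 16 input libraries were not analysed here. The authors aligned 75-base single reads to mm10 and called narrow peaks with MACS2 (2.1.1.20160309) in each library separately; the submitters' processing notes also name bcl2fastq 2.17, cutadapt 1.18 and BWA. The deposited lists give each peak's position, its fold enrichment at the summit (a ratio), and −log10 of p and of q. No read counts were used, except those at summits, recovered from fold and p together (whole to within 0.01 in −log10 p for 99.97 to 100% of peaks). Which input served which list is not given in the sources used here.

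Peaks were summed per window of the gene (GENCODE M21, GRCm38.p6) with 5 kb upstream, for protein-coding genes with peaks in at least 3 libraries. Exact tests permuted genotype within days (160000 relabellings, smallest p 1.25e-05) or day within genotype (400). Tests at single days used limma 3.58.1 with trend on log2(kb + 0.5), all 8 groups in one fit. At 3 against 3 the exact test cannot go below p 0.1. All p were adjusted by Benjamini-Hochberg over all genes at a threshold of 0.05. Merged regions called in 3 to 21 libraries were tested by the exact conditional test within days. Scaling divided kb by a library's covered length and multiplied by the mean covered length. Scripts were tested on simulated data.

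The members, lists and tests were chosen with earlier results of these data known. Named genes were the members, the knocked-out genes, the listed network and marker genes, the 3 genes of highest Spearman correlation per member (mean of at least 1 kb), and up to 3 split regions per member, besides regions singled out after their values were seen. Replicate numbers shared by the genotypes were not taken as pairs. Deviations from group means correlated over 0.1 in 4 of 12 same-numbered pairs (-0.177 to 0.263). With 3 libraries in a group these values cannot settle whether such libraries were handled together, and the labels do not say. Alternatives were a −log10 q of at least 5, the 20000 strongest peaks, 250 bp either side of summits, 0 or 20 kb upstream, other pseudocounts (0.1 and 2 kb), no filter, a replicate block, and leaving out libraries. The difference of differences between days 6 and 9, the steps between days, the EBF sequence and the fit without DKO day 6 replicate 3 were added after seeing the data.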

Additional observations from a re-analysis of the deposited data

Results flagged for a closer look

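At Prdm16, Ebf1, Ebf2 and Ebf3 the genotype difference itself changed between days 6 and 9. The difference at day 9 minus that at day 6 was 1.34 at Prdm16, 1.17 at Ebf1, 1.39 at Ebf2 and 1.09 at Ebf3 on the log2 scale (limma adjusted p 0.0227, 0.0358, 0.00763 and 0.0153), each with the DKO value below WT at day 6 and above it at day 9. The same contrast passed in that direction for 38.5% of all genes tested. With kb scaled to the covered length of each library the 4 values were 0.39, 0.01, 0.25 and -0.01, and none passed. Without DKO day 6 replicate 3, 1 of the 8 members passed. Covered length was 20.7 to 36.3 Mb in DKO day 6 libraries and 55.5 to 60.4 Mb in WT day 6 libraries, and its part in the values as called was not tested otherwise.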

How the results depend on the processing

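The calls at day 6 depended on covered length and on the strength of the peaks kept. As called, 6 pairs of a member and a day passed. The total passing was 3 with 250 bp either side of summits, 3 with no filter on genes, 0 with the 20000 strongest peaks, 8 with scaling (in part other pairs), 2 without DKO day 6 replicate 3, and 0 to 8 when replicates or single libraries were left out (2 without replicate 1, 0 without replicate 3). Scaling turned the day 6 values of Ebf1 (0.03), Ebf3 (0.25), Zfp516 (0.31) and Tle3 (0.32). Over the 4 days, the count of members past the threshold went from 0 to 1 with scaling (Ebf2, lower), and that of the wider network from 0 to 7. Of these 7, Pparg, Tle1, Irf2, Elovl3 and Ppargc1b were higher in DKO cells and Mecom and Tle2 lower. Over all genes the share went from 0.0264% to 9.19% higher and from 0.125% to 5.71% lower. For day 9 against day 0, the 5 members became 1 with the 20000 strongest peaks, and the 12 network genes became 4. Leaving out replicates 1, 2 or 3 gave 0 and 0 by the exact test, which cannot pass at that size and says nothing of stability, and single libraries gave up to 6 and 13. By limma in both genotypes, 5 members became 2 with the 20000 strongest peaks and 2 to 5 when libraries were left out (2 without replicate 1 and 2 without replicate 3, Prdm16 and Ehmt1 both times). The change from day 0 to day 9 differed between genotypes in 0 members, in 2 with scaling, and in 0 to 1 when libraries were left out (1 without DKO day 0 replicate 2). The genotype difference changed between days 6 and 9 in 4 members as called. The total passing was 0 with the 20000 strongest peaks, 1 with 250 bp windows, 1 with scaling (Zfp516, in the opposite direction and none of the 4), 2 with no filter, 2 with a pseudocount of 0.1 kb, and 0 to 7 when libraries were left out (0 without replicate 1 or 3, 7 without DKO day 0 replicate 2, 1 without DKO day 6 replicate 3). By rank, 0 to 1 members passed when libraries were left out (Zfp516 without WT day 3 replicate 3). With the 20000 strongest peaks the 25 WT and 9 DKO split regions became 2 and 1. The causes were not tested.

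Values that did not pass also turned. The genotype difference over the 4 days turned at Prdm16 with 250 bp windows (-0.0113 kb, and -0.179 to 0.333 kb when libraries were left out), at Zfp516 (0.104 kb with the 20000 strongest peaks, 0.108 kb scaled), at Ehmt1 (0.0148 kb with the 20000 strongest), at Tle3 (-0.824 kb with 250 bp windows, -0.354 to 0.671 kb without libraries) and at Irf4 (-0.00525 to 0.0481 kb without libraries). The day 9 minus day 0 value turned at Zfp516 (-0.661 kb) and Tle3 (1.65 kb) with the 20000 strongest peaks, and ranged from -2.01 to 1.03 kb at Tle3 without libraries.

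Replicate numbers were not taken to pair the libraries. With a replicate block the exact day 9 against day 0 counts were 0 and 0, with too few relabellings to pass, while the limma fit with the block kept 6 member and day pairs and 5 members. Peak lists hold no reads outside peaks, so a region not called may hold mark below the authors' threshold.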
